A study of Mus musculus with 12 samples.

Results

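The S100 genes described here encode small calcium-binding proteins, and they were chosen by name: S100a8, S100a9, S100a6, S100a11, S100a4, S100a10 and S100a13. Of these 7 genes, 6 had a row among the 11494 genes of the deposited expression table. S100a4 was not analysed here. Blood neutrophils were profiled by RNA-seq in 12 libraries from mice, 6 from a control bone marrow transplant group and 6 from a LOY transplant group, where LOY stands for loss of the Y chromosome. In both groups 10000 Ly6G+ CD115- RFP+ cells were sorted for each library, and the labels list the treatment of both as control. The labels give no strain, age, promoter or allele behind the LOY genotype. They also leave unsaid whether the libraries are separate mice, and the p-values below therefore cover variation between libraries, which may be technical. Libraries are named by group and label number (Control 1, 2, 6, 12, 17 and 18, and LOY 4, 5, 9, 10, 15 and 19).

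S100 proteins carry a pair of EF-hand motifs, helix-loop-helix folds that hold calcium, and most act as dimers that bind target proteins when calcium rises. S100A8 and S100A9 pair into calprotectin, which fills the neutrophil cytosol, withholds zinc and manganese from microbes, and, once released, can act on the receptors TLR4 and RAGE. S100A10 and S100A11 bind annexins at membranes, S100A6 binds the ubiquitin-ligase adaptor CACYBP, and S100A13 takes part in export of proteins that lack a signal peptide.

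Depth, as recovered reads per library, spanned 13743581 to 18459792 for the control group and 17097739 to 19616066 for the LOY group. The Y-linked gene Ddx3y lay between 650.4 and 1348 normalized reads in the control libraries, at 366 in LOY 4, and between 0 and 32.0 in the other 5 LOY libraries, so LOY 4 retained 34.8% of the control mean. The libraries of Control 1, 2 and 12 stood apart, with 17.3% to 21.7% of listed genes at 0, against 6.59% to 11.6% in the other 9. Values are normalized reads, that is, read counts divided by 1 size factor per library. The neutrophil marker Csf3r, the G-CSF receptor, was abundant in every library and ranged from 104006 to 184446. Ly6g, the gene of the sorting marker, was detected in all 12, at lower values from 793 to 4452. Of the 18 genes listed as monocyte and macrophage markers, 9 had a row, and several were present in every library. Csf1r, which encodes CD115, the marker gated out in the sort, ranged from 5850 to 15221 and lay above Ly6g in every library. Lgals3 ranged from 11894 to 21757 and Cd68 from 2590 to 5405. F13a1 and Irf8 were at 0 in all 6 control libraries, and ranged from 0 to 138 and from 0 to 228 in the LOY libraries. Csf1r averaged 9279 ± 2572 in control and 12442 ± 2295 in LOY libraries (SD, n = 6), a log2 difference of 0.45 with adjusted p = 0.810 in limma, and 0.22 without Control 1, 2 and 12.

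All 6 genes lie on chromosome 3 (GRCm38, GENCODE vM21), in the S100 gene cluster. S100a8 occupies 90668978 to 90670035 on the plus strand and S100a9 occupies 90692632 to 90695721 on the minus strand. The other members lie at 90514435 to 90524581 (S100a13), 90612882 to 90624181 (S100a6), 93520488 to 93526287 (S100a11) and 93555080 to 93564643 (S100a10), all on the plus strand. The kit used does not mark strand, but no exon of these 6 genes overlapped an exon of another annotated gene. Motifs were searched in the 250 bases before the RefSeq start of each gene except S100a10, for which no window was available. The RefSeq start of S100a8 lies inside the GENCODE gene, so 93 bases of its window belong to the annotated first exon and are not shown. The 157 bases before that exon (chr3:90668821-90668977, plus strand) and the window of S100a9 (chr3:90695722-90695971, minus strand) are shown because these 2 genes were the most abundant and moved together between libraries. They are RefSeq sequences of build GRCm38.p6, 5′ to 3′ on the gene's strand, with matches to 3 motifs in capitals.
S100a8 promoter: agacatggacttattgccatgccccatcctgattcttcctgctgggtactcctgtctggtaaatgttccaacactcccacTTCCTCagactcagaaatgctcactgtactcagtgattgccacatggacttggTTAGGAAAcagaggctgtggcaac
S100a9 promoter: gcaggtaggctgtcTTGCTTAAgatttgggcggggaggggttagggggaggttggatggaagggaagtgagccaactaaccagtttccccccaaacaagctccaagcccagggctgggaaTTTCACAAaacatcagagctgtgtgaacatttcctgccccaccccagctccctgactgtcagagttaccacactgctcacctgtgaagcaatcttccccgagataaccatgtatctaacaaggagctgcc
The motifs, searched on both strands, were TTNNGNAA for C/EBP factors, GAGGAA for the PU.1 core and TATAAA for the TATA box. Positions are counted back from the RefSeq start. The S100a8 window held a C/EBP match at -117 to -110, a PU.1 core on the minus strand at -170 to -165 and again at -36 to -31, and a TATA box at -30 to -25, directly after the second PU.1 match; the last pair of matches lies in the exon. The S100a9 window held C/EBP matches on the minus strand at -236 to -229 and -130 to -123, and neither other motif. The S100a6 and S100a13 windows held none of the 3, and the S100a11 window held 1 PU.1 core. Among 32851 promoter windows of the same length, 36.8% held the C/EBP letters, 23.3% the PU.1 core and 12.4% the TATA box, so these matches are a description of the sequence.

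S100a8 and S100a9 were the most abundant transcripts in the table: by normalized reads S100a8 ranked first and S100a9 second in every library. Together they made up 5.70% to 10.5% of normalized reads in the control libraries, with a median of 7.72%, and 5.71% to 8.48% in the LOY libraries, with a median of 6.24%. The LOY range lay within the control range. Within the sum of the 6 S100 genes the pair held 90.6% to 93.0% across libraries.

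To compare levels between genes, normalized reads were divided by exon length in kilobases. On this scale the means over 12 libraries were 1016630 ± 239468 for S100a9, 993178 ± 276528 for S100a8, 132019 ± 26198 for S100a11, 26913 ± 4943 for S100a6, 573 ± 216 for S100a13 and 34.6 ± 35.6 for S100a10 (SD, n = 12). These levels placed the genes at ranks 1, 2, 7, 29, 1237 and 6572 of the listed genes. S100a11, S100a6, S100a13 and S100a10 each lay below the gene before them in 12 of 12 libraries. The order of the top pair was not settled: S100a9 was above S100a8 in 7 of 12 libraries with the union of exons as length, and in 0 of 12 with the longest transcript.

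None of the 6 genes passed the test between LOY and control neutrophils. The test was limma on log2(value + 1) over 9742 genes with Benjamini-Hochberg adjustment at 0.05, and it called 0 of 6 S100 genes against 0.0205% of all genes tested. At an unadjusted p under 0.05 it counted 0 of 6, against 6.04% of all genes. On the recovered reads, edgeR and DESeq2 also called 0 of 6, against 0% and 0.484% of genes, and counted 0 of 6 at an unadjusted p under 0.05, against 2.94% and 5.55% of genes. No gene of the 6 had groups that did not overlap, which 0.287% of tested genes had. The median difference of the 6 genes was -0.13 on the log2 scale, beside 0.14 for all genes tested. The median of all genes was 0.15 with TMM normalization, 0.00062 with quantile normalization, -0.0099 in edgeR and -0.011 without Control 1, 2 and 12. In sorted cells measured in bulk, fewer cells of a type and less RNA per cell cannot be told apart.

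**Figure D1:**
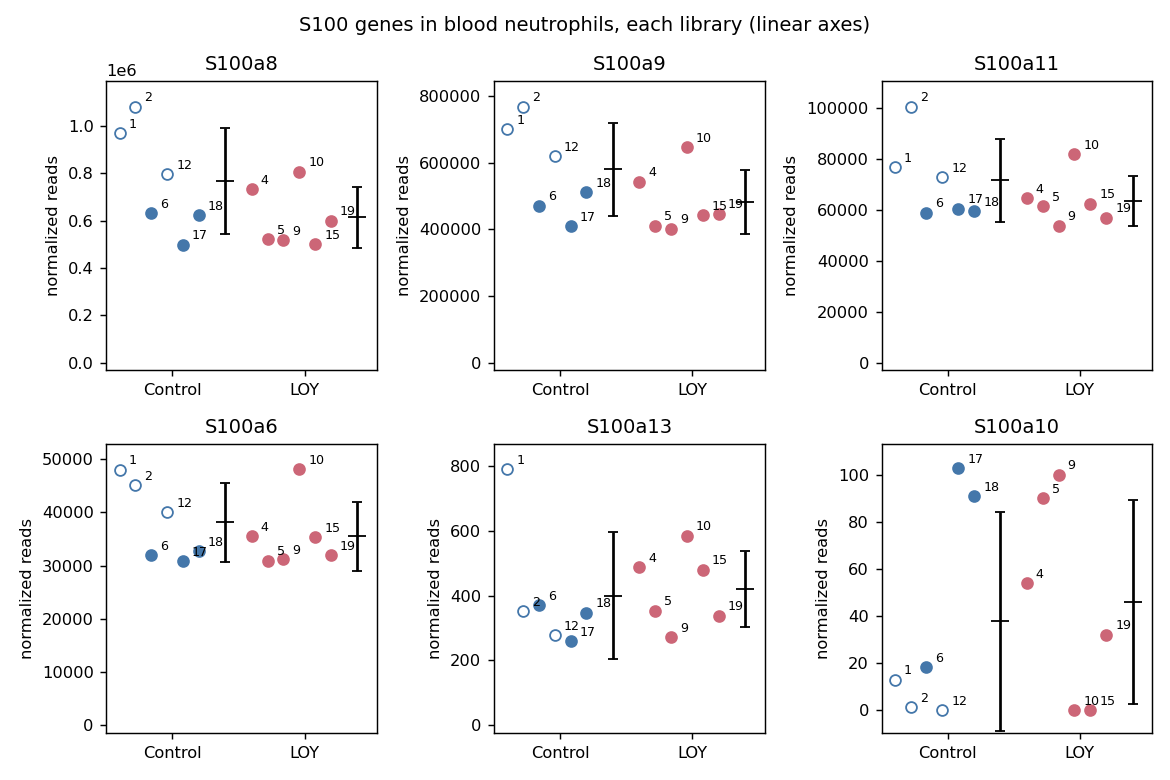
Normalized reads (linear y axes) of 6 S100 genes in each library, numbered as in the labels, for control (blue) and LOY (red), with open circles for Control 1, 2 and 12 and black bars for the group mean ± SD (n = 6). S100a8 was highest in Control 2 (1081102) and the groups overlapped for every gene.

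S100a8, which encodes a calprotectin subunit, ranged in the control libraries from 497213 through a median of 712810 to 1081102 normalized reads, and in the LOY libraries from 500885 through 559886 to 805997. Control 1, 2 and 12 were the highest of the control libraries, and LOY 10 and LOY 4 the highest of the LOY libraries, so that the groups overlapped over most of their range. The log2 difference, LOY against control, was -0.29 ± 0.19 (SE), with a 95% interval from -0.71 to 0.12 (limma, adjusted p = 0.826). The authors' deposited table gives a log2 fold change of -0.32 with unadjusted p = 0.0888 and adjusted p = 0.999997.

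S100a9, the partner subunit whose C-terminal tail adds to metal binding, ranged from 408286 through a median of 565036 to 768026 in the control libraries and from 401263 through 444180 to 646786 in the LOY libraries. Only 1 LOY library lay below the lowest control library. Its log2 difference was -0.25 ± 0.16 (SE), with a 95% interval from -0.61 to 0.10 (limma, adjusted p = 0.826). The authors' deposited table lists -0.27 with unadjusted p = 0.113 and adjusted p = 0.999997.

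For both genes the sign rested on 3 control libraries. Control 1, 2 and 12 were the highest of the control libraries for both genes, so leaving them out had to raise the estimate. S100a8 averaged 948479 in Control 1, 2 and 12 and 583174 in the other 3 control libraries, beside 612705 ± 128099 (SD, n = 6) in the LOY libraries. Without Control 1, 2 and 12 the log2 difference was 0.05 for S100a8 and 0.04 for S100a9 (limma, adjusted p = 0.986 and 0.989). In a fit that included each library's percentage of genes at 0 it was 0.12 and 0.10. That percentage was highest in the same 3 control libraries, so these fits are not independent. Granule protein genes did not all move 1 way in these 3 libraries, though Lyz2, Ngp, Lcn2 and Mmp8 were higher in each of them than in all other 9. Lyz2, lysozyme, lay between 266683 and 323926 in them and between 160509 and 263100 in the other 9. Ngp, neutrophilic granule protein, lay between 4198 and 7363 against 416 and 3229. Lcn2 lay between 28311 and 34500 against 12517 and 28135, and Mmp8 between 51093 and 84120 against 22580 and 45116. Ltf, lactoferrin, was instead at 6.45 in Control 1, 1.28 in Control 2 and 232 in Control 12, against 96.3 to 1444 in the other 9. Mmp9, a gelatinase, lay between 93947 and 111139 against 93099 and 144489. The part of these differences in the S100 result was not tested.

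The proportion of the 2 calprotectin transcripts varied less than their level. The ratio of S100a8 to S100a9 reads was 1.31 ± 0.0817 (SD, n = 6) in the control libraries and 1.27 ± 0.0787 (SD, n = 6) in the LOY libraries, and it ranged from 1.13 to 1.41 over all 12. The groups overlapped. Over all 12 libraries the coefficient of variation was 27.8% for S100a8, 23.6% for S100a9, 18.4% for S100a6 and 19.8% for S100a11, beside a median of 28.9% over 3582 genes with a mean of 500 or more.

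**Figure D2:**
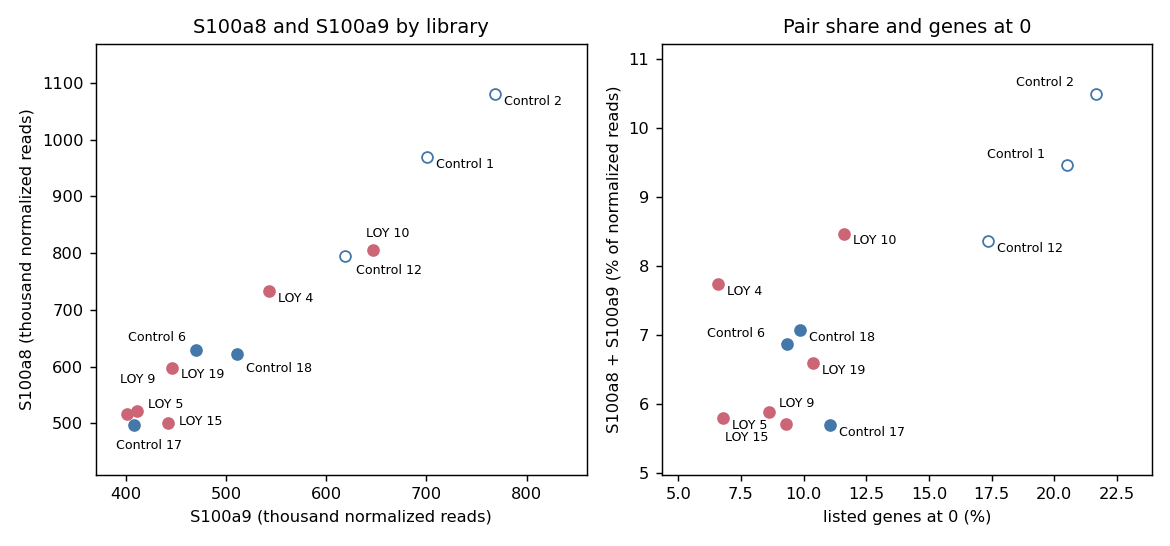
Left, S100a8 against S100a9 in normalized reads per library, both axes scaled down by the factor their labels give. Right, the pair's share of normalized reads (%) against the share of listed genes at 0 (%), with control in blue, LOY in red and Control 1, 2 and 12 as open circles. The open circles lie at 17.3% to 21.7% of genes at 0, to the right of the other 9 libraries.

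S100a11, calgizzarin, a partner of annexin A1, ranged from 58818 through a median of 66655 to 100480 in the control libraries and from 53756 through 61868 to 81868 in the LOY libraries. Control 2 was the highest control library and LOY 10 the highest LOY library. The log2 difference was -0.16 ± 0.14 (SE), with a 95% interval from -0.46 to 0.14 (limma, adjusted p = 0.855). Its level carries a counting limit, because 3 listed processed pseudogenes share sequence with it. Gm12854 shares 47.0%, Gm7665 33.1% and Gm29240 8.11% of the 481 stretches of 31 bases in its exons, so reads could be split between them and S100a11. These pseudogenes averaged 1633, 3281 and 102 normalized reads in the control libraries, against 71474 for S100a11.

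S100a6, calcyclin, ranged from 30815 through a median of 36374 to 48019 in the control libraries and from 30887 through 33601 to 48070 in the LOY libraries. LOY 10 was the highest of all 12, just above Control 1, and the other 5 LOY libraries lay at or below 35492. The log2 difference was -0.10 ± 0.14 (SE), with a 95% interval from -0.40 to 0.20 (limma, adjusted p = 0.895). Without Control 1, 2 and 12 the sign turned for both genes, to 0.08 for S100a11 and 0.14 for S100a6.

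S100a13 was far less abundant than the 4 genes above. It ranged from 259 through a median of 349.9 to 790.3 in the control libraries and from 271 through 417 to 586 in the LOY libraries. Control 1 held the highest value, and the other 5 control libraries lay at or below 372. The log2 difference was 0.13 ± 0.30 (SE), with a 95% interval from -0.53 to 0.79 (limma, adjusted p = 0.938).

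S100a10, the annexin A2 partner that has lost calcium binding, was close to the floor of the table. It ranged from 0 through a median of 15.5 to 103 in the control libraries and from 0 through 43.0 to 100.2 in the LOY libraries. It was at 0 in Control 12, LOY 10 and LOY 15, where a count of 0 allows up to 2.75, 2.78 and 2.68 normalized reads (3 reads, counting error only). Its log2 difference of 0.25 ± 1.60 (SE) had a 95% interval from -3.22 to 3.73 (limma, adjusted p = 0.980), and it was -1.83 without Control 1, 2 and 12. Recovered reads of S100a10 ranged from 0 to 110 between libraries. No difference of S100a10 was detectable with this spread.

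**Figure D3:**
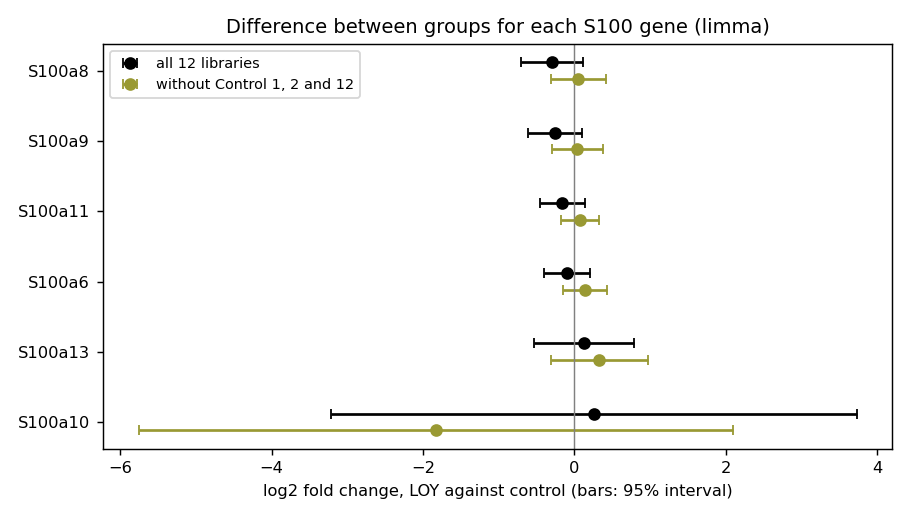
Log2 fold change, LOY against control, of each S100 gene by limma, with 95% intervals, for all 12 libraries (black) and without Control 1, 2 and 12 (olive). All intervals include 0, and the point for S100a8 moves from -0.29 to 0.05.

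The 4 abundant genes varied together from library to library. Pearson's r of log2(value + 1) over 12 libraries was 0.979 between S100a8 and S100a9, 0.885 between S100a6 and S100a11, and 0.872 between S100a8 and S100a6. Over the 9 libraries other than Control 1, 2 and 12 these were 0.944, 0.931 and 0.739. S100a10 had negative r, with -0.702 against S100a6 over 12 libraries and -0.764 over 9. It was at 0 in Control 12, LOY 10 and LOY 15 and at 1.28 in Control 2, so its r includes values at the floor. Values of 1 library share its size factor and depth, so these r describe the libraries. With the percentage of genes at 0, S100a8 had r = 0.806 over 12 libraries and 0.115 over 9.

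**Figure D4:**
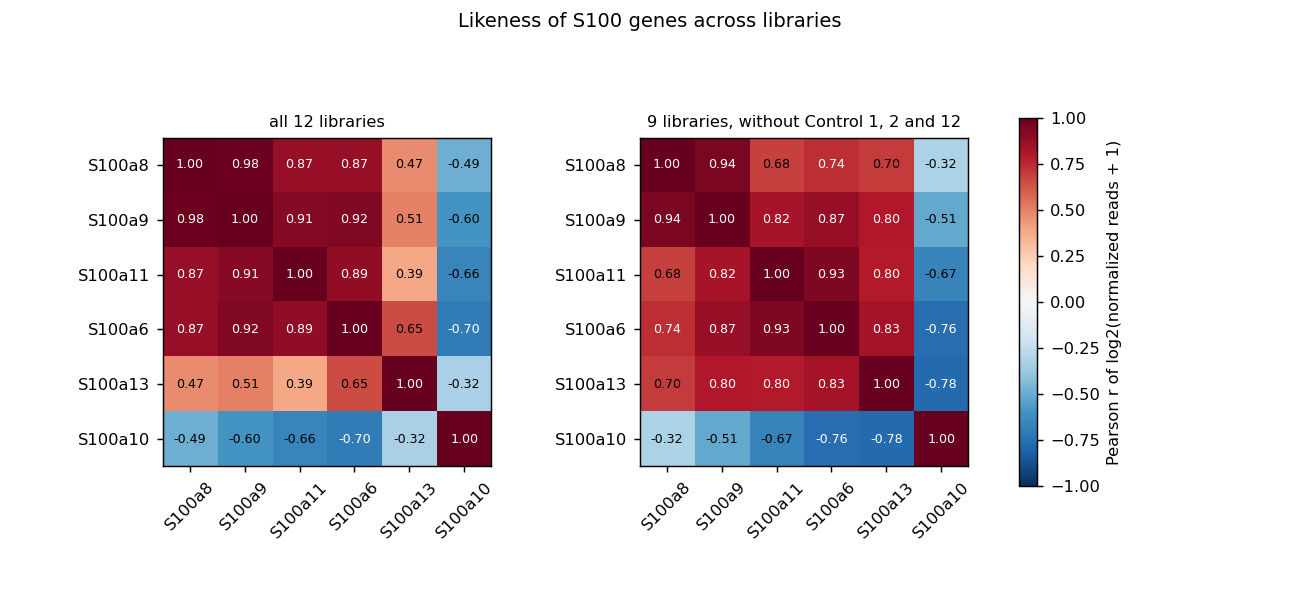
Pearson's r of log2(normalized reads + 1) between S100 genes, over all 12 libraries (left) and over the 9 without Control 1, 2 and 12 (right). S100a8 and S100a9 have 0.98 and 0.94. The row of S100a10, a gene close to the floor, is negative in both.

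Among 3578 genes with a mean of 500 or more, those most like each member were named by r over the 12 libraries. For S100a8 they were Rnf125 (0.960), Pfn1 (0.922) and Srgn (0.921), and for S100a9 Rnf125 (0.943), Pfn1 (0.933) and Selenok (0.912). Pfn1 encodes the actin-binding protein profilin, and Srgn encodes serglycin, the proteoglycan of granules. For S100a6 they were Pglyrp1 (0.938), Wfdc21 (0.925) and Cfl1 (0.906), of which Pglyrp1 encodes a peptidoglycan-binding granule protein and Cfl1 cofilin. For S100a11 they were Gm7665 (0.975), Gm12854 (0.970) and Pfn1 (0.953), the first pair being pseudogenes that share its sequence. S100a13 was nearest to Vrk1 (0.857), Atp6v1g1 (0.850) and Gda (0.811), and S100a10 to Arf3 (0.839), Srd5a3 (0.836) and Gm39321 (0.830). Over the 9 libraries without Control 1, 2 and 12, r rose for the named genes of S100a10 and for Wfdc21, and fell for the others. S100a8 then had 0.925 with Rnf125 and 0.802 with Pfn1, and S100a9 had 0.753 with Selenok. S100a13 had 0.685 with Vrk1 and 0.650 with Gda.

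Of 10 other S100 genes looked for, S100a1, S100a3 and S100a7a had a row. Their control means were 62.7, 23.4 and 40.7 normalized reads, and limma called 0 of 3, against 0.0205% of all genes tested. S100a2, outside that list, also had a row, with means of 6.90 in control and 22.3 in LOY libraries, and did not pass the filter for the test. Within 100000 bases of a member 12 other genes were listed, with means from 14.6 to 599.5, and limma called 0 of the 11 tested. The 4 with the smallest p were S100a3, Tchh, Pglyrp4 and Ints3, all with estimates above 0 and the smallest adjusted p at 0.810 in limma.

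Genes that work with S100 proteins were listed by role. Limma called 0.0205% of all genes tested, so 0 calls in lists of this size says little about them. Of the receptors and adaptors that sense released S100 proteins, limma called 0 of 14 tested. Bsg, basigin, a receptor for S100A9, averaged 1468 ± 267 in control and 1933 ± 234 in LOY libraries (SD, n = 6), a log2 difference of 0.41 with adjusted p = 0.762 in limma. The kinase Irak1 (-0.52), the ubiquitin ligase Traf6 (1.52) and the TLR4 co-receptor Ly96 (-0.40) followed by p. Without Control 1, 2 and 12 these values were -0.08 for Irak1, -0.36 for Traf6 and -0.28 for Ly96. Of binding partners limma called 0 of 19, with a median log2 difference of 0.01. Lmna, lamin A/C, had 2.76 ± 0.98 (SE, limma, adjusted p = 0.762), and 1.89 without Control 1, 2 and 12. It averaged 101 ± 140 in control and 394 ± 245 in LOY libraries (SD, n = 6), with a lowest control value of 2.56. The tubulin gene Tuba1b had 0.33. Of 18 regulators of calprotectin transcription limma called 0, with 9 estimates above 0 and 9 below. Cebpd, a C/EBP factor, ranged from 383 to 6642 in control and from 396 to 7937 in LOY libraries. Its log2 difference was -1.21 ± 0.87 (SE, limma, adjusted p = 0.837), and -1.77 without Control 1, 2 and 12. Of 28 other EF-hand genes limma called 0, and the smallest p was that of the calmodulin gene Calm3, with a log2 difference of -0.35.

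Among these gene lists, genes called by any of the 3 tools were found only in the metal-handling list, and only by DESeq2. Over all genes it tested, DESeq2 called 0.484%. Slc39a4, a zinc importer, averaged 1670 ± 193 in control and 1097 ± 184 in LOY libraries (SD, n = 6). Its log2 difference was -0.61, with adjusted p = 0.332 by limma and 0.0216 by DESeq2. Ltf, lactoferrin, the iron-binding granule protein, averaged 99.3 ± 87.2 in control and 789.8 ± 507.6 in LOY libraries (SD, n = 6), with adjusted p = 0.602 by limma and 0.0351 by DESeq2. Its limma log2 difference was 3.84, and 2.39 without Control 1, 2 and 12. Limma called 0 of the 6 genes tested in this list, against 0.0205% of all genes tested.

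Markers of other blood cells were summed per library. Monocyte and macrophage markers summed to 32250 to 52406 in control and 36430 to 40689 in LOY libraries. B cell markers summed to 4078 to 7058 and 2006 to 8660, and T and NK cell markers to 118 to 453 and 89.2 to 253. Erythroid markers summed to 72416 to 142405 and 93481 to 627945, platelet markers to 1229 to 1876 and 642 to 1880, and eosinophil and basophil markers to 1.08 to 335 and 35.7 to 213. Limma called 0 of the genes tested in each of these lists, against 0.0205% of all genes tested. Every range overlapped between the groups. DESeq2, which called 0.484% of all genes it tested, called F13a1 and Irf8, which were at 0 in all control libraries. F13a1 was above 0 only in LOY 5 (79.5) and LOY 15 (138). Irf8 ranged from 0 in LOY 10 to 228 in LOY 9. Neither gene passed the filter for limma. The part of these other cells in the S100 values was not tested.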

How the data were processed

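RNA-seq of sorted mouse blood neutrophils was analysed in 6 control and 6 LOY libraries. Builds GRCm38 and mm10 and the tools STAR 2.5.2b, Trimmomatic 0.36, Subread 1.5.2 and featureCounts are listed in the submitters' processing notes. The authors deposited a normalized signal per gene and library, with their own log2 fold changes and p-values, per the file headers. The signal was a whole multiple of 1 step per library for 100.0% of values (tolerance 0.02 reads), so read counts were recovered. Genes with a mean below 8.63 are not listed.

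Differences were tested with limma 3.58.1 (R 4.3.3; trended, robust empirical Bayes) on log2(value + 1), for the 9742 genes that reached 10 normalized reads in 6 libraries, with Benjamini-Hochberg adjustment. Fold changes are on this scale. For low genes with libraries near 0 they can differ in size and sign from the authors' deposited table, as for S100a7a (1.66 against -0.22). edgeR 4.0.16 and DESeq2 1.42.0 ran on recovered reads as alternatives. The limma script was tested on simulated data with 200 changed genes. The genes and lists were chosen with earlier results of these data known. Named were all members, up to 3 genes most like each, and, from the 4 with the smallest p in each gene list and those any tool called, the ones given (1 gene is not reported here). Protein sequences were not used here. The 22 alternatives are given in the closing section.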

Additional observations from a re-analysis of the deposited data

Results flagged for a closer look

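In 16 groups of 6 libraries examined (6 S100 genes, the share of the calprotectin pair and its ratio, in both groups), the gap between an extreme library and its neighbour was compared with the whole range. Chance alone flags about 1 in 20 such groups. S100a6 stood out in the LOY group, where LOY 10 held 48070 normalized reads and the gap was 0.732 of the range, above Dixon's critical value. S100a13 stood out in the control group, where Control 1 held 790.3 and the gap was 0.789 of the range. Without LOY 10 the log2 difference of S100a6 was -0.19, and without Control 1 that of S100a13 was 0.35.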

How the results depend on the processing

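The count of S100 genes called was 0 under all 22 alternatives. The sign was less stable. When the fit included each library's percentage of genes at 0, the log2 difference was 0.12 for S100a8, 0.10 for S100a9, 0.21 for S100a6, 0.15 for S100a11 and -2.39 for S100a10. Without Control 1, 2 and 12 it was 0.055, 0.042, 0.14, 0.077 and -1.83. Quantile normalization gave -0.77 for S100a10, and it sets S100a8 and S100a9 to no difference by construction, since they rank first and second in every library. Leaving out each library in turn gave -0.41 to -0.18 for S100a8, -0.35 to -0.16 for S100a9, -0.19 to -0.03 for S100a6, -0.23 to -0.05 for S100a11, -0.49 to 1.05 for S100a10 and 0.03 to 0.35 for S100a13. An unadjusted p under 0.05 appeared for S100a8 and S100a9 without Control 17 and for S100a9 without LOY 10. With the longest transcript as length, the level per kilobase was 1384068 for S100a8 and 46986 for S100a6. The cause of these changes was not tested. S100a10 did not pass a filter on a mean of 50. All genes called numbered 2 in limma, 0 in edgeR and 54 in DESeq2. No paired analysis was possible because the groups share no replicate numbers.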

Other observations

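Red cell transcripts differed between libraries: Hba-a1, alpha globin, was at 244166 normalized reads in LOY 15 and between 30581 and 85766 in the other 11. The S100a11 pseudogene S100a11-ps averaged 10.1 (control) and 10.9 (LOY) normalized reads.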
